A study of Mus musculus with 199 samples.

Results

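Expression of 9 mouse genes that mark regulatory T cells or encode receptors and cytokines of activated T cells was followed through an RNA sequencing series of a liver cancer model. The genes were Foxp3, Il2ra, Ikzf2, Il10, Ccr8, Tnfrsf4, Tnfrsf9, Tnfrsf18 and Il21. They were taken by symbol from the 37713 genes of the count table, and all 9 were found. The series holds 199 libraries in 23 groups from male wild-type C57BL/6 mice of an in-house colony. The 12 groups of T cells (73 libraries) and the 3 groups of whole tissue (65 libraries) carry the results, and 61 libraries of sorted neutrophils served only as a background.

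DEN ALIOS stands for diethylnitrosamine (DEN), which causes liver tumours, combined with ALIOS, a high-fat and high-sugar diet. T cells were sorted by flow cytometry as CD3+ cells, and the protocol names blood and tumours as their sources, whereas the titles say blood and liver. The word liver is used here as in the titles. Untreated DEN ALIOS mice gave 6 liver and 7 blood libraries. Of these, 1 liver and 2 blood libraries carry a Vehicle label. DEN ALIOS mice given aPD1, an antibody to the checkpoint receptor PD-1, gave 5 libraries from each site. DEN ALIOS mice given CXCR2i, which blocks CXCR2, a chemokine receptor of neutrophils, gave 6 from each site, and 4 of the 6 were also labelled as receiving the isotype control of aPD1. The combination of CXCR2i and aPD1 gave 5 from each site. Mice without DEN ALIOS in the title received PBS (8 libraries from each site) or CXCR2i (6 from each site). Both sites were sequenced in 36 animals. Whole tissue came from DEN ALIOS mice as liver tissue (15 libraries, with the treatment label Normal), small tumours (25) and large tumours (25). The labels give neither ages nor doses, and they do not tie tissue libraries to animals, so tumours may share a mouse and tissue p-values measure the spread between libraries.

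T cell libraries held 337110 to 10755816 gene counts (median 6291781), and tissue libraries 12055434 to 21850190. Levels are given as CPM, the counts of a gene per 1000000 gene counts of its library. The sum of 10 T cell markers lay between 1225 and 4663 CPM in the T cell libraries, and Cd3e and Foxp3 had counts in all 73. Summed markers of macrophages, endothelium, neutrophils and hepatocytes reached 1000 CPM or more in 6 liver libraries, which are untreated DEN ALIOS replicate 2, aPD1 replicate 3, DEN ALIOS CXCR2i replicate 3, combination replicate 3 and PBS replicates 2 and 4. The others stayed at or under 857 CPM. PBS liver replicates 3 and 4 held under 1000000 gene counts. Results were repeated without these 7 libraries, a choice made after seeing the data.

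Regulatory T cells restrain other T cells. Their fate is set by the transcription factor FOXP3, often together with Helios, the product of Ikzf2, and they depend on interleukin-2 that they bind through the receptor chain CD25, the product of Il2ra. In inflamed tissue and tumours, activated regulatory T cells display the chemokine receptor CCR8 and the TNF receptor family members OX40 (Tnfrsf4), 4-1BB (Tnfrsf9) and GITR (Tnfrsf18), which signal through TRAF adaptors to NF-kB. These receptors are also induced on other activated T cells. Interleukin-10 (Il10) dampens inflammation, and interleukin-21 (Il21) is a cytokine of helper T cells that acts on B cells and T cells.

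Foxp3 lies on chromosome X and Tnfrsf4, Tnfrsf18 and Tnfrsf9 on chromosome 4 (GRCm38). Tnfrsf4 (156013843 to 156016612) ends 9551 bp before Tnfrsf18 (156026164 to 156028895), and Tnfrsf9 spans 150914562 to 150946102. RefSeq promoter windows of 250 bases before to 50 after a start were matched for 7 of the 9 genes, in 9 windows. Those that hold a pair of STAT5 half-sites are shown because STAT5 carries the signal of the interleukin-2 receptor, to which the chain encoded by Il2ra belongs. All 3 genes were higher in liver T cells of DEN ALIOS than of PBS mice, but so were 8 of the 9 genes. Tnfrsf4, Ccr8 and Il21 were among the 8, and their windows hold no such pair. Capitals mark matches on either strand to TTCNNNGAA, the STAT5 half-site pair, or TGANTCA, an AP-1 motif, and the matches do not overlap. The first is Tnfrsf18 at chr4:156026072-156026371, the next Tnfrsf9 at chr4:150927749-150928048 and the last Foxp3 at chrX:7580233-7580532, all on the plus strand of GRCm38.p6.
Tnfrsf18: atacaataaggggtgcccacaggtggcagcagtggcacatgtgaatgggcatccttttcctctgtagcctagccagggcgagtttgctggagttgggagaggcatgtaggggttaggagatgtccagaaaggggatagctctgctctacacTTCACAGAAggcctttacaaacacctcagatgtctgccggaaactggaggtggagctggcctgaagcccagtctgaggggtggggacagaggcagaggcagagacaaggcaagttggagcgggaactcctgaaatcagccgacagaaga
Tnfrsf9: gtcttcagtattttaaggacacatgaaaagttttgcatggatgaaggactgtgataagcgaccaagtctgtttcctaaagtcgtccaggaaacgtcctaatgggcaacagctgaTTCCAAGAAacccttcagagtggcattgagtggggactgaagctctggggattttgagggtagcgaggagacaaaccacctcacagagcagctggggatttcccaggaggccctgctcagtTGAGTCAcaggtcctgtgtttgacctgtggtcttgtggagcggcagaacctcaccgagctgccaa
Foxp3: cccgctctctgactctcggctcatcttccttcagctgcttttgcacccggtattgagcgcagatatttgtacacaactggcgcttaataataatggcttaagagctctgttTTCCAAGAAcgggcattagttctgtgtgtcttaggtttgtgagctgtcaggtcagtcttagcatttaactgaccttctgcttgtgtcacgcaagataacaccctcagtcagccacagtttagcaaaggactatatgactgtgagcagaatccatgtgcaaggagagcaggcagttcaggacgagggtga
Each of the 3 windows has 1 match to TTCNNNGAA, and the Tnfrsf9 window also has 1 match to TGANTCA. Among 32851 windows of the same length, 8.30% hold TTCNNNGAA and 7.81% hold TGANTCA. The windows of Tnfrsf4, Il2ra, Ccr8 and Il21 and the other windows of Tnfrsf9 and Foxp3 had neither. A match is a run of letters and not evidence of binding.

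T cells of the liver were first set against T cells of the blood of the same animals. In untreated DEN ALIOS mice, 8 of the 9 genes were higher in liver, with a median log2 fold change of 1.70 against -0.00 over all genes tested. Il10, Ccr8, Il21 and Tnfrsf9 differed most and Il2ra, Foxp3 and Tnfrsf18 least. Il10, Ccr8 and Il21 had 10, 21 and 40 counts in blood of the 6 paired animals and passed the filter through liver. Their place among the 8 is thus partly built in. Of all genes, 40.6% passed the threshold in this comparison and 21.2% were higher in liver. The threshold is an adjusted p under 0.05 in edgeR with the animal as a block, fitted to the 6 animals with both sites. In a bulk library of CD3+ cells, more cells that express a gene and more RNA per cell cannot be told apart. Where groups are said below not to overlap, the share of all genes without overlap was not counted.

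**Figure D1:**
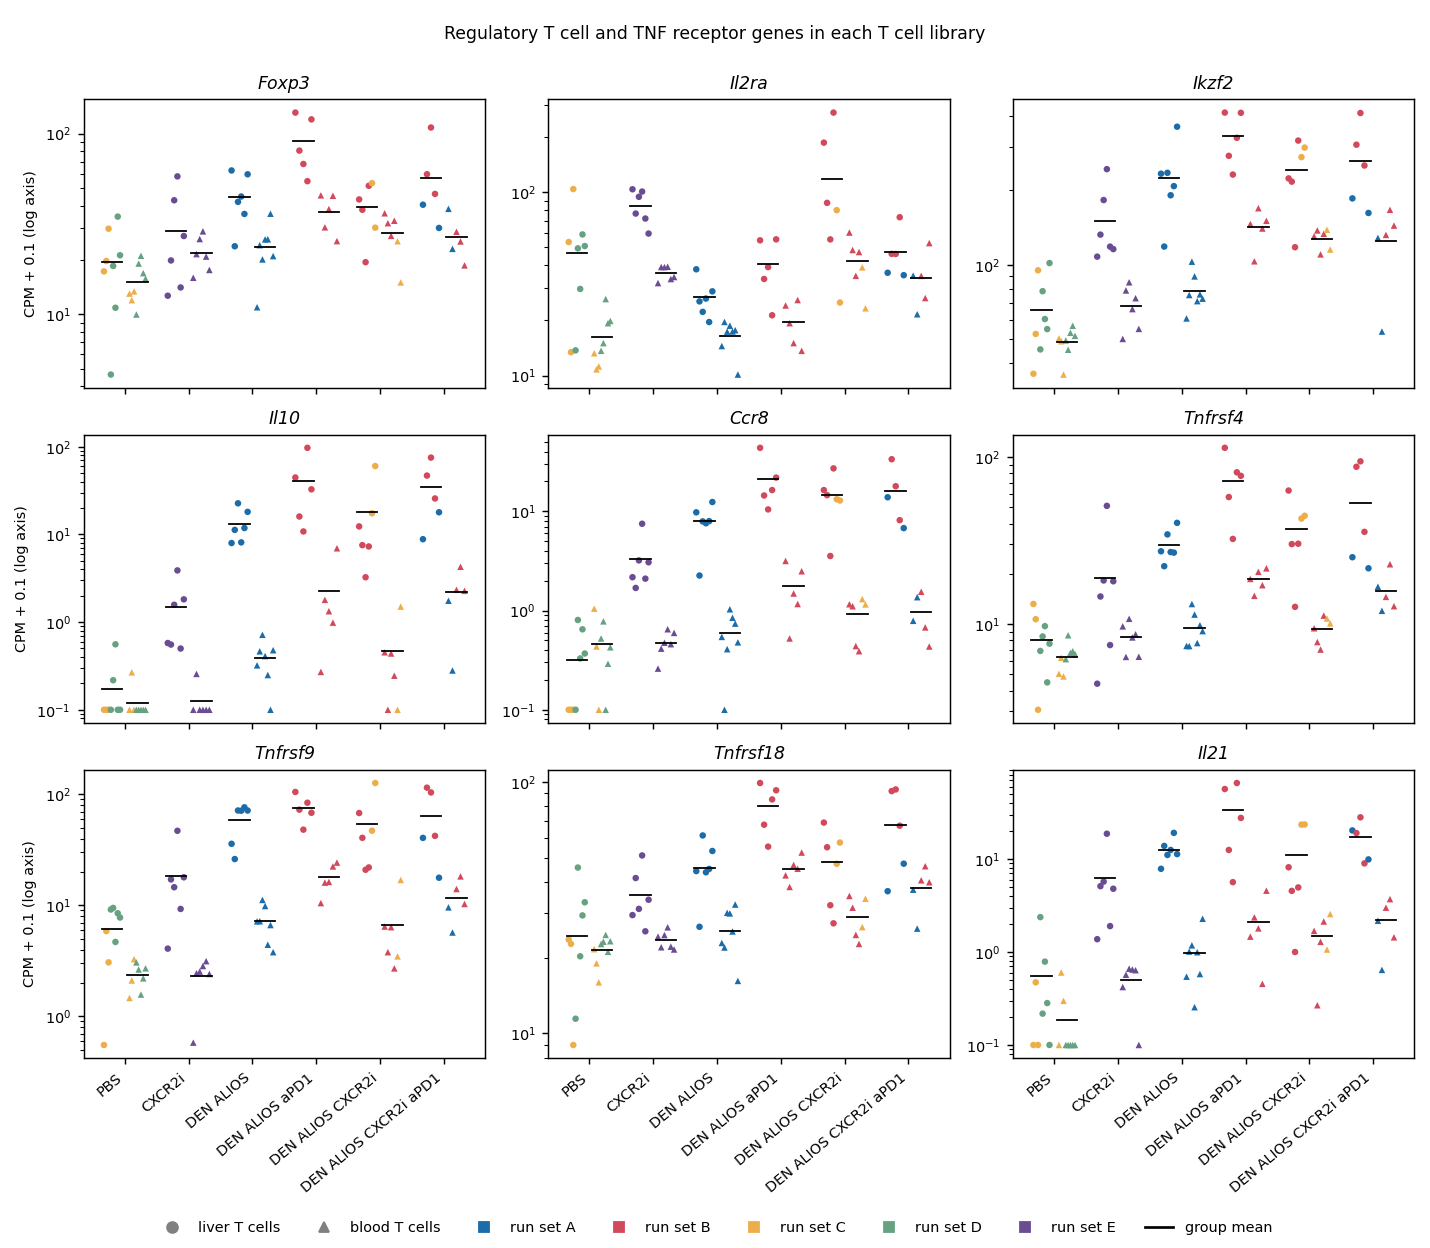
Level of each of the 9 genes in each T cell library, as CPM + 0.1 on a log axis, by condition. Circles are liver and triangles blood libraries, colours are run sets and lines are group means. Il10, Ccr8 and Il21 sit near the bottom in PBS liver and in blood and reach their highest values in liver T cells of DEN ALIOS mice.

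Among the transcription factors, Ikzf2 was at 118, 221 and 362 CPM (lowest, median and highest of 6) in untreated DEN ALIOS liver T cells and at 60.6, 75.4 and 103 CPM in the 7 blood libraries. The 2 groups did not overlap, and the liver level was higher by 1.48 ± 0.16 (log2 fold change ± standard error, adjusted p = 0.000236). Foxp3 was at 23.7, 43.3 and 62.4 CPM in liver and at 10.8, 24.0 and 35.9 CPM in blood. These ranges overlapped, 4 of 6 animals were higher in liver, and the difference of 0.82 ± 0.30 did not pass (adjusted p = 0.0717). It passed without the animal block (0.89, adjusted p = 0.00384) and in a joint fit of all conditions (0.84, adjusted p = 0.0163).

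The cytokine genes Il10 and Il21 were close to absent from blood. Il10 was at 7.87, 11.4 and 22.5 CPM in liver, whereas the 7 blood libraries held 14 counts in all and none exceeded 0.616 CPM. The ratio of pooled levels was 43.2 (95% interval 25.6 to 79.6, for counting error only), and the fitted log2 fold change was 5.66 ± 0.28 (adjusted p = 1.73e-07). Il21 was at 7.73, 11.8 and 19.0 CPM in liver against 0.155, 0.894 and 2.17 CPM in blood, a log2 fold change of 3.74 ± 0.37 (adjusted p = 4.52e-05). No blood library reached the lowest liver library for either gene.

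Ccr8, the receptor for the chemokine CCL1, was at 2.15, 7.84 and 12.3 CPM in liver and at 0, 0.442 and 0.929 CPM in blood, a log2 fold change of 3.81 ± 0.31 (adjusted p = 4.08e-06). Ccl1 itself was at 1.52, 2.55 and 3.85 CPM in liver, and all 7 blood libraries were at 0. The groups overlapped for neither gene. Il2ra, the interleukin-2 receptor chain, was at 19.5, 25.7 and 37.8 CPM in liver and at 10.0, 17.3 and 19.5 CPM in blood. All 6 animals were higher in liver, by 0.65 ± 0.16 (adjusted p = 0.00954), although the ranges met.

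Of the TNF receptor genes, Tnfrsf9 was at 26.0, 71.3 and 76.4 CPM in liver and at 3.69, 7.08 and 11.1 CPM in blood, a log2 fold change of 3.15 ± 0.32 (adjusted p = 0.000349). Tnfrsf4 was at 22.1, 27.1 and 40.3 CPM in liver and at 7.28, 8.98 and 13.1 CPM in blood, a log2 fold change of 1.70 ± 0.11 (adjusted p = 8.97e-07). Neither gene had overlapping groups. Tnfrsf18 was at 26.4, 44.5 and 61.1 CPM against 16.1, 25.3 and 32.4 CPM, an overlapping pair of groups with a log2 fold change of 0.82 ± 0.15 (adjusted p = 0.00145).

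Markers of other cell types moved with this contrast. The sum of 10 macrophage markers was 15.4 to 500 CPM (median 81.1) in these liver libraries and 3.21 to 28.8 CPM in the blood libraries, where Vsig4 was at 0. All 4 macrophage markers that could be tested were higher in liver. The sum of 8 dendritic cell markers was 115 to 495 CPM in liver and 185 to 278 CPM in blood, and of 7 tested 6 were higher and 1 lower in liver. Of 4 NK cell markers tested 3 were higher, and so were the hepatocyte gene Alb (by 6.99) and the endothelial genes Kdr (5.07) and Cdh5 (3.52), while the endothelial gene Pecam1 (-1.12) and the platelet genes Itga2b and Pf4 (both -2.69) were lower. Without the libraries of high marker sums or low depth 8 of the 9 genes were higher in liver, and otherwise the part of these markers was not tested.

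**Figure D2:**
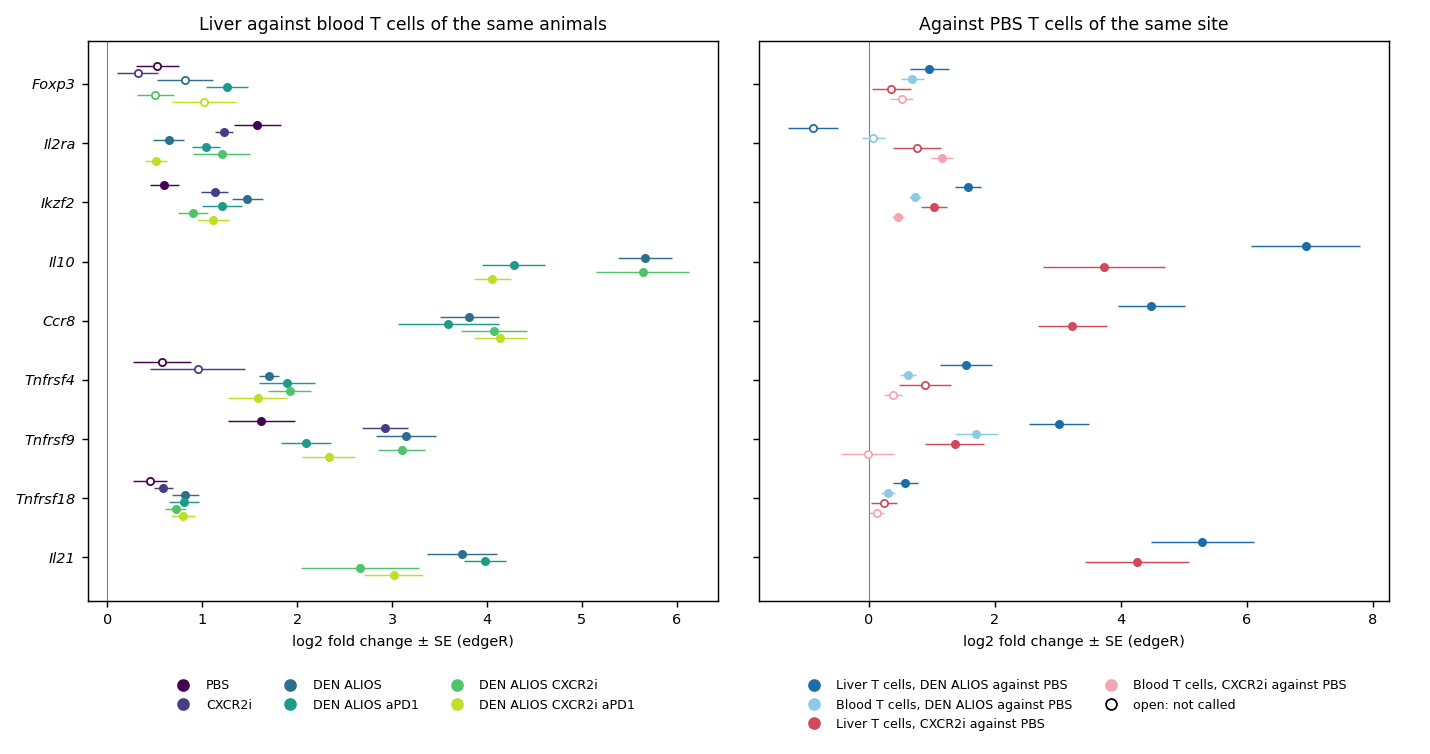
Log2 fold changes of the 9 genes with standard errors from edgeR, for liver against blood T cells in each condition (left) and for DEN ALIOS or CXCR2i against PBS at each site (right). Filled points passed an adjusted p of 0.05. All passing differences between liver and blood point to liver, with Il10 largest in untreated DEN ALIOS at 5.66.

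The same contrast was made in the other conditions. In PBS mice 3 of 6 tested genes were higher in liver (Il2ra, Ikzf2 and Tnfrsf9), where 6.98% of all genes passed and 4.88% were higher. Only Il2ra passed there without the libraries of high marker sums or low depth. With CXCR2i and no DEN ALIOS, 4 of 6 were higher, which added Tnfrsf18 (31.2% of all genes passed and 16.2% were higher). In DEN ALIOS mice given aPD1 all 9 were higher (24.2% of all genes passed and 12.5% were higher). After CXCR2i 8 of 9 were higher (35.4% and 18.1%), and after the combination 8 of 9 (14.9% and 7.53%), Foxp3 being the exception in both. Without the libraries of high marker sums, Foxp3 passed as well after CXCR2i, and after the combination 6 of 9 passed. No gene passed as lower in liver in any condition. Ccr8 in PBS mice was higher in liver in 3 animals, lower in 4 and equal in 1, and Foxp3 after CXCR2i alone was higher in 3 and lower in 3. Il10, Ccr8 and Il21 were too low for the test in the 2 conditions without DEN ALIOS, and in DEN ALIOS mice they passed the filter mainly through liver. With CXCR2i and no DEN ALIOS, each was higher in liver in 6 of 6 animals without overlap. Liver and blood there held 49 and 1 counts of Il10, 111 and 13 of Ccr8, and 210 and 14 of Il21. Over all 36 animals, Il2ra was higher in liver in 36, Tnfrsf9 in 34, Ikzf2 and Tnfrsf18 in 33, Tnfrsf4, Ccr8 and Il21 in 31, Il10 in 30 and Foxp3 in 26.

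For Foxp3, the difference between liver and blood passed in the aPD1 group alone among the 6 conditions. The 5 liver libraries were at 131, 80.4, 67.8, 54.4 and 120 CPM and the 5 blood libraries at 45.4, 30.2, 38.2, 45.2 and 25.3 CPM. All liver libraries lay above all blood libraries, and the log2 fold change was 1.26 ± 0.22 (adjusted p = 0.0098). The liver-to-blood difference of this group was not shown to exceed that of untreated mice, with a difference of differences of 0.43 ± 0.39 (adjusted p = 1).

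The liver-to-blood difference itself was then compared between conditions. It was larger in DEN ALIOS than in PBS mice for Ccr8, by 4.02 ± 0.83 on the log2 scale (adjusted p = 0.0025), for Tnfrsf9, by 1.46 ± 0.45 (adjusted p = 0.0366), and for Ikzf2, by 0.94 ± 0.24 (adjusted p = 0.0134). Of all genes, 9.78% passed this test and 5.12% were larger. Ccr8 had 12 liver and 22 blood counts over the 8 PBS animals, too few for the test in PBS mice alone. It entered this fit through groups where it is high. Its PBS difference, used here and for CXCR2i below, is thus read near the floor. Tnfrsf9 did not pass without the 2 shallow PBS libraries (1.38, adjusted p = 0.0606). The other 6 genes did not pass, among them Il2ra at -0.87 ± 0.32 (adjusted p = 0.0802) and Il10 at 4.27 ± 2.90 (adjusted p = 0.366). CXCR2i without DEN ALIOS differed from PBS for Ccr8 alone, by 3.19 ± 0.87 (adjusted p = 0.0239). Here 6.4% of all genes passed and 2.99% were larger, and Ccr8 did not pass without the libraries of high marker sums or low depth. Among DEN ALIOS mice, none of the 9 genes differed between a treatment and no treatment (0.0216% of all genes for aPD1, 1.39% for CXCR2i, of which 1.19% were larger, and 0% for the combination). At an unadjusted p under 0.05 these 3 tests held 2, 1 and 1 of the 9, and 694, 1436 and 696 of all 13859 genes.

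Within liver T cells, DEN ALIOS mice were set against PBS mice. No sequencing run held both groups, so run and group cannot be told apart here. All but Il2ra rose. The 8 of 9 stand against 30.6% of all genes that passed and 14.7% that rose, and their median log2 fold change, Il2ra included, was 1.58 against -0.01 over all genes. Il10, Ccr8 and Il21, with 3, 12 and 10 counts in PBS liver, passed the filter only through groups where they are high. The 8 of 9 and the median include them, so their rise is partly built in. The same filter holds for the CXCR2i liver comparisons below, which share this fit. The groups did not overlap for Ikzf2, Il10, Ccr8, Tnfrsf4, Tnfrsf9 and Il21. How many of all genes separate the same libraries was not counted.

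Il10 was almost undetected in PBS liver T cells. The 8 libraries held 3 counts, with 6 libraries at 0, a pooled level of 0.0758 CPM (95% Poisson interval 0.0156 to 0.222). With 567 counts in DEN ALIOS, the ratio of pooled levels was 172 (95% interval 58.4 to 834, for counting error only), and the log2 fold change fitted by edgeR was 6.94 ± 0.87 (adjusted p = 3.14e-06), a value that depends on the prior count. Il21 had 10 counts in PBS liver, with a median of 0.150 and a highest value of 2.27 CPM, and the ratio of pooled levels was 49.7 (26.8 to 104). Its fitted change was 5.30 ± 0.82 (adjusted p = 4.57e-05). Ccr8 had 12 counts there and 4 libraries at 0, a ratio of 26.5 (15.0 to 51.7) and a fitted change of 4.49 ± 0.54 (adjusted p = 1.58e-06).

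Tnfrsf9 was at 0.452, 6.72 and 9.38 CPM in PBS liver, where the lowest DEN ALIOS library had 26.0 CPM, and rose by 3.02 ± 0.48 on the log2 scale (adjusted p = 6.13e-05). Ikzf2 was at 36.2, 57.6 and 102 CPM in PBS liver and rose by 1.58 ± 0.21 (adjusted p = 4.55e-06). Tnfrsf4 was at 2.97, 7.93 and 13.1 CPM and rose by 1.54 ± 0.41 (adjusted p = 0.00625). For each of these the highest PBS library stayed under the lowest DEN ALIOS library.

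Foxp3 and Tnfrsf18 moved least among the genes that rose. Foxp3 was at 4.54, 19.0 and 34.6 CPM in PBS liver, and 5 of 6 DEN ALIOS libraries lay above the highest of these. It rose by 0.96 ± 0.31 (adjusted p = 0.0185), a call that was lost without DEN ALIOS replicate 1 (0.83, adjusted p = 0.0534) and with run set as a term over all groups (1.85 ± 0.83, adjusted p = 0.126). Tnfrsf18 was at 8.90, 23.0 and 45.5 CPM, with 2 of 6 DEN ALIOS libraries above the highest, and rose by 0.58 ± 0.20 (adjusted p = 0.0283, and 0.0803 without DEN ALIOS replicate 3).

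Il2ra stood apart. It was at 13.3, 49.99 and 104 CPM in PBS liver, a range that includes all 6 DEN ALIOS libraries, and its log2 fold change was -0.89 ± 0.40 (adjusted p = 0.0902). DESeq2 called it lower (-0.93, adjusted p = 0.0364). Cd4 was at 63.5, 168 and 309 CPM in PBS liver and at 200, 279 and 403 CPM in DEN ALIOS liver, and Cd8a at 52.2, 177 and 325 CPM and at 322, 639 and 872 CPM. Cd8a rose by 1.47 ± 0.35 (adjusted p = 0.00244). Summed macrophage markers were 2.27 to 108 CPM in PBS liver and 15.4 to 500 CPM in DEN ALIOS liver, and summed dendritic cell markers 93.6 to 269 and 115 to 495 CPM. Their part was not tested, but 8 genes rose also without the libraries of high marker sums or low depth, Foxp3 by 1.08 and Tnfrsf18 by 0.53.

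The same contrast was then made in blood T cells. Of 6 genes tested, 5 were higher in DEN ALIOS than in PBS (23.3% of all genes passed and 12.3% were higher). Tnfrsf9 rose by 1.71 ± 0.34 (adjusted p = 0.000453), from 1.36, 2.32 and 3.17 CPM in PBS. Ikzf2, at 35.9, 49.8 and 56.6 CPM in PBS, rose by 0.74 ± 0.09 (adjusted p = 2.18e-07). These were the genes without overlap between the groups, and how many of all genes separate them was not counted. Foxp3, at 9.87, 14.5 and 21.0 CPM in PBS, rose by 0.69 ± 0.18 (adjusted p = 0.00529), with 4 of 7 DEN ALIOS libraries above the highest PBS library. Tnfrsf4, at 4.76, 6.35 and 8.47 CPM in PBS, rose by 0.63 ± 0.13 (adjusted p = 0.000674). Tnfrsf18, at 15.9, 22.0 and 24.5 CPM in PBS, rose by 0.31 ± 0.11 (adjusted p = 0.0417), a call lost without any of 9 single libraries (adjusted p up to 0.108, without DEN ALIOS replicate 6). Il2ra was at 10.7, 14.2 and 26.0 CPM in PBS, with a change of 0.07 ± 0.18 (adjusted p = 0.812). With run set as a term over all groups, Ikzf2 (1.41) and Tnfrsf9 (3.62) still passed, and Foxp3 was at -0.18 ± 0.48. Other markers moved with this contrast. Summed B cell markers were 48.7 to 181 CPM in PBS blood and 8.78 to 22.3 CPM in DEN ALIOS blood, and summed NK cell markers 91.4 to 130 and 166 to 243 CPM. Cd8a was at 244, 301 and 345 CPM in PBS and at 373, 455 and 539 CPM in DEN ALIOS blood. None of these groups overlapped, and their part in the result was not tested.

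Foxp3 was also set against Cd4, since FOXP3+ cells are mostly CD4+ cells. Untreated DEN ALIOS blood held 10.6 Foxp3 CPM per 100 Cd4 CPM and PBS blood 5.25. Cd4 itself was at 176, 234 and 268 CPM in DEN ALIOS and at 237, 285 and 324 CPM in PBS blood. The log2 ratio was higher by 0.99, and 6 of 7 DEN ALIOS libraries lay above all 8 PBS libraries (exact two-sided permutation test, p = 0.000932, adjusted over 8 comparisons p = 0.00746). In liver the values were 15.8 and 11.3 per 100, a difference of 0.54 in the log2 ratio (exact p = 0.0533, adjusted p = 0.0833). Without the libraries of high marker sums or low depth it was 0.81 (adjusted p = 0.0317). At both sites the DEN ALIOS libraries were of run set A and the PBS libraries of C and D, and the permutation holds no run term. Run and group thus cannot be told apart in these ratios. Liver exceeded blood by 0.36 to 1.05 in the 6 conditions, with adjusted exact p of 0.0625 to 0.125, where groups of 5 animals cannot go below an unadjusted p of 0.0625.

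CXCR2i without DEN ALIOS was compared with the same PBS libraries, so this comparison and the preceding ones share their controls. The CXCR2i libraries came from a run set of their own. In liver 5 of 9 genes were higher (17.6% of all genes passed and 7.65% were higher). Ikzf2 was at 108, 125 and 244 CPM and rose by 1.03 ± 0.21 (adjusted p = 0.00114). Ccr8 was at 1.59, 2.52 and 7.39 CPM and rose by 3.23 ± 0.55 (adjusted p = 0.000271). Neither overlapped PBS. Il10 reached 0.399, 0.977 and 3.79 CPM, and the ratio of pooled levels to PBS was 18.8 (6.06 to 94.1). Il21 reached 1.27, 4.84 and 18.6 CPM with a ratio of 24.1 (12.9 to 51.1). Tnfrsf9, at 3.98, 15.8 and 46.9 CPM, rose by 1.36 ± 0.47 (adjusted p = 0.0481), a call lost without CXCR2i replicate 4 (0.85, adjusted p = 0.22) and in 10 other cases of 1 library left out. That replicate was the highest library for Ccr8, Tnfrsf4, Tnfrsf9 and Il21. In blood 2 of 6 genes were higher (11% of all genes passed and 6.65% were higher). Il2ra was at 31.8, 36.6 and 39.1 CPM, above every PBS blood library, and rose by 1.16 ± 0.18 (adjusted p = 3.8e-05), and Ikzf2 rose by 0.47 ± 0.09 (adjusted p = 0.000772).

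DEN ALIOS with CXCR2i was then set against CXCR2i alone. In liver 3 of 9 genes rose (6.59% of all genes passed and 4.21% rose). Il10 was at 3.15, 9.84 and 60.1 CPM and rose by 3.6 ± 0.63 (adjusted p = 0.000682), Ccr8 was at 3.45, 13.8 and 27.0 CPM and rose by 2.12 ± 0.43 (adjusted p = 0.00301), and Tnfrsf9 was at 20.8, 43.7 and 126 CPM and rose by 1.52 ± 0.46 (adjusted p = 0.0449). The call of Tnfrsf9 was lost in 9 of 12 cases of 1 library left out, with the smallest change without DEN ALIOS CXCR2i replicate 6 (1.06, adjusted p = 0.142). All 3 calls were lost when the 4 isotype-labelled libraries were left out, which leaves 2 libraries in the group. In blood Ikzf2, at 110, 132 and 138 CPM against 50.04, 69.7 and 84.9 CPM, rose by 0.84 ± 0.10 (adjusted p = 1.21e-06), and Tnfrsf9 by 1.46 ± 0.40 (adjusted p = 0.019), 2 of 6 genes where 10.2% of all genes passed and 5.87% rose. The call of Tnfrsf9 in blood was lost without DEN ALIOS CXCR2i replicate 6 (0.92, adjusted p = 0.0863).

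Treatments within DEN ALIOS were compared with run set as a term, because untreated libraries all came from run set A and aPD1 libraries all from run set B. Only the combination, with 2 libraries in A and 3 in B, links them. The CXCR2i libraries were 4 of run set B and 2 of run set C, and no other group here had run set C. Those 2 are taken up by the run set term and do not bear on the fitted changes. A fitted change thus need not match the ratio of the group means. Of 10 comparisons, 1 gene passed in 1 comparison.

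**Figure D3:**
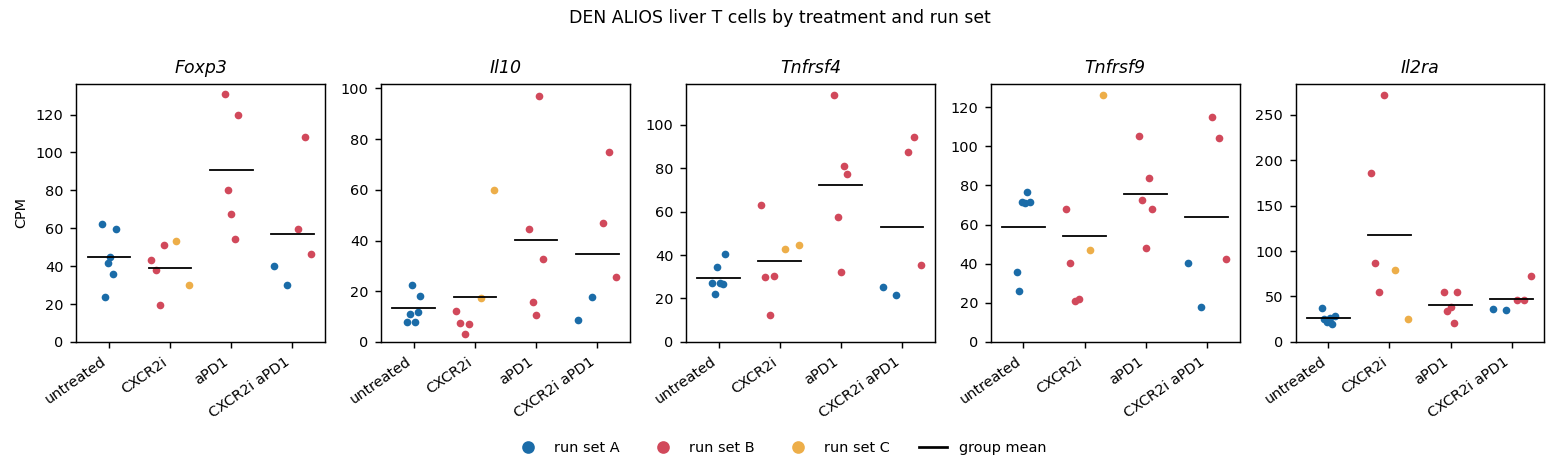
CPM (linear axis) of 5 of the genes in liver T cells of the 4 DEN ALIOS groups, with libraries coloured by run set and group means as lines. Untreated libraries are all of run set A and aPD1 libraries all of run set B, and the 2 combination libraries of run set A lie below the 3 of run set B for Il10.

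The call was Il10 in liver, higher after the combination than after CXCR2i alone. The combination libraries were at 8.72, 46.8, 75.1, 25.6 and 17.8 CPM and the CXCR2i libraries at 3.15, 9.84 and 60.1 CPM (lowest, median and highest). Over all run sets the groups overlapped, and the log2 fold change was 2.63 ± 0.66 (adjusted p = 0.0348, 3.44% of all genes). In run set B the 3 combination libraries were at 25.6 to 75.1 CPM and the 4 CXCR2i libraries at 3.15 to 12.2 CPM. With the run set term the change rests on these libraries. A fit within run set B thus repeats it by design and is no separate check (2.63 ± 0.71, adjusted p = 0.112).

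aPD1 libraries were often the highest but came from another run set. Foxp3 in aPD1 liver lay above the highest untreated library in 4 of 5 libraries, and its mean was 90.6 against 44.7 CPM, but with the run set term the change was -0.04 ± 0.52 (adjusted p = 0.987) and without it 0.90 ± 0.30 (adjusted p = 0.225). Il10 was at 44.5, 15.9, 10.7, 97.1 and 32.6 CPM, Il21 at 56.4, 12.4, 5.53, 65.4 and 27.5 CPM, and Ccr8 at 43.5, 14.3, 10.3, 16.3 and 21.8 CPM in aPD1 liver. Replicates 1 and 4 were high and replicate 3 low for Il10 and Il21, and replicate 3 was the lowest of the 5 for Ccr8 as well. Tnfrsf4 was at 114, 57.6, 32.3, 81.1 and 77.2 CPM. None of the 9 genes passed (0.00769% of all genes), and none did at an unadjusted p under 0.05, where 1533 of all 13005 did. In blood none passed with the run set term (0.0161% of all genes). At an unadjusted p under 0.05 there were 2 of 8 genes, and 970 of all 12387. Without the run set term 5 of 8 were higher. They were Il10 by 2.65, Tnfrsf9 by 1.17, Tnfrsf4 by 0.82, Ikzf2 by 0.69 and Tnfrsf18 by 0.65. The share of all genes that passed without the term is not given here, so the 5 of 8 cannot be set against it.

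Combination libraries of the 2 run sets were set side by side. In liver the 2 libraries of run set A and the 3 of run set B were at 21.5 to 25.1 and 35.6 to 94.4 CPM for Tnfrsf4. For Tnfrsf18 they were at 36.6 to 47.1 and 66.8 to 93.1 CPM, and for Ikzf2 at 162 to 186 and 252 to 411 CPM. All of run set B lay above all of run set A for these genes, and also for Foxp3, Il2ra, Il10 and Tnfrsf9. The run sets overlapped for Ccr8 (6.67 to 13.8 and 8.04 to 33.4 CPM) and Il21 (9.79 to 20.2 and 8.86 to 27.9 CPM). With 2 and 3 libraries a full separation is a weak description, and an effect of run set was not tested.

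Il2ra was higher in mean with CXCR2i than in untreated DEN ALIOS mice. In DEN ALIOS liver T cells with CXCR2i it was at 24.9, 83.5 and 271 CPM against 19.5, 25.7 and 37.8 CPM in untreated mice. The log2 fold change with the run set term was 1.87 ± 0.67 and did not pass (adjusted p = 0.139, 0.669% of all genes), while without it the change was 2.08 (adjusted p = 0.00432). In blood it was at 23.1, 42.9 and 60.1 CPM against 10.0, 17.3 and 19.5 CPM, with no overlap, a change of 1.07 ± 0.38 (adjusted p = 0.257, 0.436% of all genes) and of 1.23 without the term (adjusted p = 0.00173). With the combination, Il2ra was at 34.9, 21.5, 34.8, 26.3 and 52.6 CPM in blood, again above every untreated library, and the change was 0.65 ± 0.28 (adjusted p = 0.256, 2.53% of all genes).

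For Tnfrsf9 and Il10 in CXCR2i against untreated DEN ALIOS liver, the fitted values turned on the run set term. With it Tnfrsf9 was at -2.17 ± 0.70 (adjusted p = 0.103) and Il10 at -2.67 ± 0.99 (adjusted p = 0.151), and without it at -0.13 ± 0.43 (adjusted p = 0.902) and 0.42 ± 0.64 (adjusted p = 0.761). The levels given above for the 2 groups overlapped for both genes, with means of 54.1 against 58.7 CPM for Tnfrsf9 and 17.9 against 13.2 CPM for Il10. At an unadjusted p under 0.05, edgeR held 7 of the 9 genes and 2448 of all 13005. Of the 7, Il2ra had a positive change and 6 a negative one. Neither Tnfrsf9 nor Il10 passed the adjusted threshold there. With the run set term, DESeq2 called both lower (adjusted p = 0.024 and 0.0446). In the combination against no treatment in liver, none passed (0.169% of all genes), nor in the combination against aPD1 in liver (0% of all genes) or in blood (0.161%), nor in the combination against CXCR2i in blood (0.614%). At an unadjusted p under 0.05 these held 0, 0, 2 and 4 genes. The counts over all genes were 2157 and 364 of 13005 in liver, and 348 and 1672 of 12387 in blood. DESeq2 called Il10, Tnfrsf4 and Tnfrsf9 higher in the combination against CXCR2i in blood.

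The 12 T cell groups were ordered by mean level. Adjacent groups in that order had overlapping ranges in 11 of 11 pairs for every gene except Il10 (10 of 11). Sorting puts like groups side by side, so this overlap does not tell how distinct the 12 groups are. Liver T cells of DEN ALIOS mice given aPD1 had the highest mean of Foxp3 (90.6 ± 33.1 CPM, SD, n = 5), Ikzf2 (332 ± 80.9), Il10 (40.2 ± 34.6), Ccr8 (21.3 ± 13.1), Tnfrsf4 (72.4 ± 30.2), Tnfrsf9 (75.6 ± 21.0), Tnfrsf18 (79.7 ± 18.1) and Il21 (33.4 ± 26.5). Il2ra was highest in DEN ALIOS liver with CXCR2i (117 ± 92.9 CPM, n = 6). In the 6 blood groups mean Ccr8 was 0.362 to 1.66 CPM.

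Per kilobase of exon, the mean levels in untreated DEN ALIOS liver T cells were 29.9 CPM for Tnfrsf18, 21.7 for Tnfrsf4, 21.6 for Tnfrsf9 and 19.4 for Ikzf2. Il10 followed at 10.1, Foxp3 at 9.76, Ccr8 at 6.71, Il2ra at 4.66 and Il21 at 2.37 CPM per kilobase. In PBS liver Tnfrsf18 led at 15.9 and Il2ra was next at 8.15, while Ccr8, Il21 and Il10 were at 0.186, 0.0862 and 0.0549.

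Across the 36 liver T cell libraries, log2 levels of the 9 genes were correlated as a description. The 28 pairs without Il2ra had a Pearson r of 0.66 to 0.94, highest for Ccr8 with Ikzf2. Il2ra had an r of -0.14 to 0.18 with the others. The libraries share site, run sets and treatment groups, and the groups differ in level. Among 11620 genes whose mean reached 1 CPM, the most similar were Twsg1 (0.88), Hif1a (0.87) and Ikzf4 (0.86) for Foxp3. For Il10 they were Clgn (0.96), Insrr (0.95) and Pdcd1 (0.95), and for Ccr8 Pdcd1 (0.95), Ptpn13 (0.95) and Clip3 (0.94). Pdcd1 encodes PD-1, the target of aPD1. Those for Ikzf2 were Syt11 (0.94), Endod1 and Ptpn13 (both 0.93), for Tnfrsf4 Penk, Dgki and Itgb8 (all 0.91), and for Tnfrsf9 Rgs16 (0.93), Apaf1 and Lgalsl (both 0.92). Tnfrsf18 was closest to Pgm1 (0.91), Psmb8 (0.91) and Plscr1 (0.90), Il21 to Clgn, Ttbk1 and Rgs16 (all 0.93), and Il2ra to Ly6g5b (0.91), Ramp1 (0.90) and Clnk (0.89).

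Related genes were taken from lists, and their counts stand beside the share of all genes that passed. In liver against blood of untreated DEN ALIOS mice this was 40.6% (21.2% higher and 19.4% lower), and in DEN ALIOS against PBS liver 30.6% (14.7% and 15.9%). Of 21 other regulatory T cell genes tested, 11 were higher and 3 lower in liver than in blood of untreated DEN ALIOS mice (median 0.53), and of 22 tested, 11 rose and 3 fell in DEN ALIOS against PBS liver (median 0.95). Areg, a growth factor of tissue regulatory T cells, was higher by 5.90 ± 0.52 and 4.73 ± 0.60 in these comparisons, and Tigit, a checkpoint receptor, by 2.44 ± 0.23 and 3.96 ± 0.51. Tigit was at 43.5, 115 and 153 CPM in DEN ALIOS liver, at 10.0, 18.4 and 33.0 CPM in blood and at 0, 5.75 and 11.9 CPM in PBS liver. Il1r2, the decoy receptor of interleukin-1, was higher by 2.32 ± 0.45 and 4.00 ± 0.90.

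Of the TNF ligands, 9 of 12 were higher and 2 lower in liver than in blood, and 6 rose and 3 fell of 12 against PBS. Tnfsf4, which encodes the ligand of OX40, was at 3.33, 10.8 and 24.5 CPM in DEN ALIOS liver, 0.447, 1.42 and 3.39 CPM in blood and 0, 0.0586 and 1.36 CPM in PBS liver, with log2 fold changes of 3.13 ± 0.28 and 5.19 ± 0.80. Tnfsf9, the ligand of 4-1BB, was higher in liver than in blood by 1.63 ± 0.34, and Tnfsf11, which encodes RANKL, by 2.12 ± 0.21. Of the other TNF receptors, 4 of 12 were higher and 3 lower in liver than in blood, and 2 rose and 2 fell of 16 against PBS. Tnfrsf8 rose by 3.46 ± 0.58 and Tnfrsf1b by 1.69 ± 0.20 against PBS, and Tnfrsf25 fell by 0.90 ± 0.31 on the log2 scale.

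Among TRAF and NF-kB genes, 12 of 21 were higher and 2 lower in liver than in blood, and 3 rose and 2 fell of 21 against PBS. Tnfaip3, an inhibitor of NF-kB, was higher by 1.77 ± 0.24 and 2.19 ± 0.28. Interleukin-2 and STAT5 genes were mixed, with 4 higher and 6 lower of 13 in liver against blood and 3 higher and 1 lower of 14 against PBS. Cish, a target of STAT5, was higher by 0.93 ± 0.21 and 1.43 ± 0.22, and Il7r was lower in liver than in blood by -1.33 ± 0.14. Among genes of interleukin-10, interleukin-21 and follicular helper cells, 7 of 11 and 8 of 12 were higher and 1 lower in each. Maf was higher in liver than in blood by 1.56 ± 0.21, Ahr rose by 1.72 ± 0.24 against PBS, and Il4 fell by 4.04 ± 0.78 on the log2 scale.

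In whole tissue, 4 of the 9 genes were high enough to test. Tnfrsf18, Tnfrsf9 and Tnfrsf4 were higher in large tumours than in liver tissue, where 70.5% of all genes passed and 38.5% were higher, and in small tumours, where 65.7% passed and 34.7% were higher. Tnfrsf18 had the largest change of the 4. No gene of the 4 differed between large and small tumours (2.48% of all genes). None had an unadjusted p under 0.05 in that comparison, where 2703 of all 14538 genes did.

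**Figure D4:**
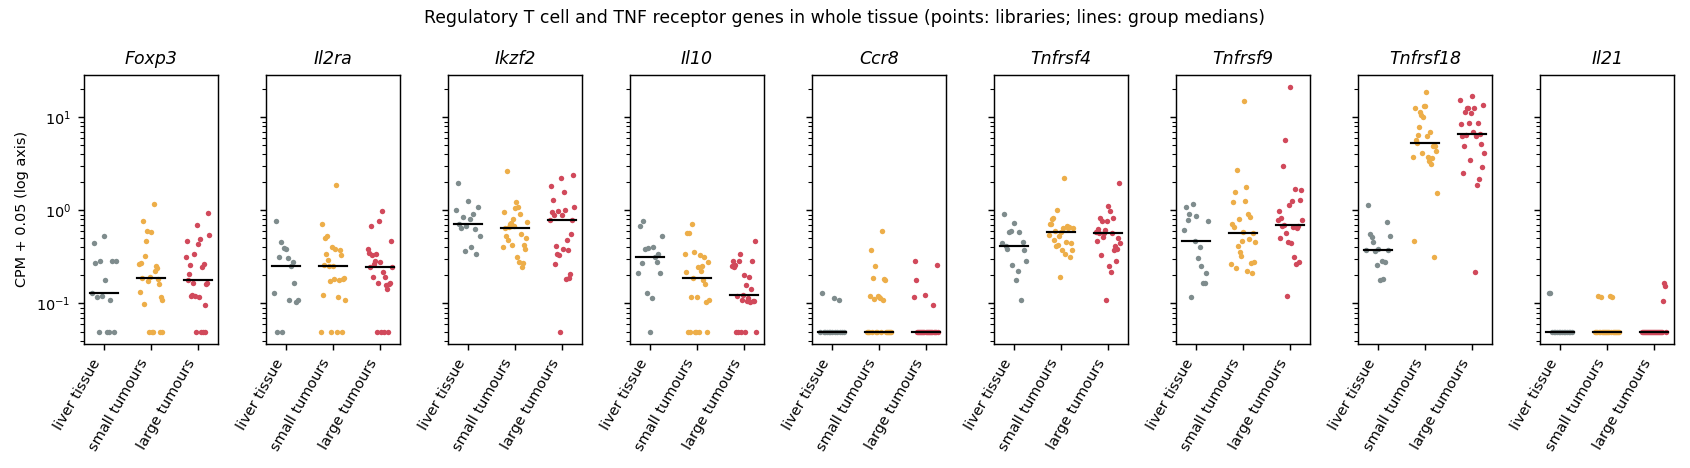
Levels of the 9 genes in liver tissue, small tumours and large tumours, as CPM + 0.05 on a log axis. Points are libraries and lines are medians. Tnfrsf18 has a median of 0.324 CPM in liver tissue, 5.31 in small and 6.53 in large tumours.

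Tnfrsf18 was at 0.128, 0.324 and 1.11 CPM in 15 liver tissue libraries, at 0.267, 5.31 and 18.7 CPM in 25 small tumours and at 0.168, 6.53 and 17.0 CPM in 25 large tumours. In 24 of 25 large and 23 of 25 small tumours it lay above the highest liver tissue. The log2 fold change was 4.33 ± 0.40 in large (adjusted p = 8.05e-15) and 4.22 ± 0.39 in small tumours (adjusted p = 3.09e-14). It held in each of the 3 runs, with medians of 0.434, 0.221 and 0.478 CPM in liver tissue, 5.96, 13.2 and 3.65 CPM in small tumours and 6.19, 11.2 and 4.62 CPM in large tumours. Over the alternatives it was 3.53 to 4.67 and passed in each. With the mean log2 level of T cell markers as a covariate it was 4.21 ± 0.40 in large tumours.

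T cell markers differed less than Tnfrsf18 between these tissues. Median Cd3e was 0.742 CPM in liver tissue, 1.06 CPM in small and 0.709 CPM in large tumours, and summed T cell markers had medians of 16.8, 18.4 and 17.2 CPM. These CPM are not scaled as in the fit. In the fit 6 of 10 T cell markers were higher in large tumours, where 38.5% of all genes were. Their median log2 fold change was 0.80 against 0.05 over all genes. Across the 50 tumours the r of Tnfrsf18 was 0.18 with Cd3e and 0.40 with Foxp3. Macrophage markers were lower in large tumours (9 of 10), with sums of 1139 to 2094 CPM in liver tissue and 230 to 1488 CPM in large tumours.

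**Figure D5:**
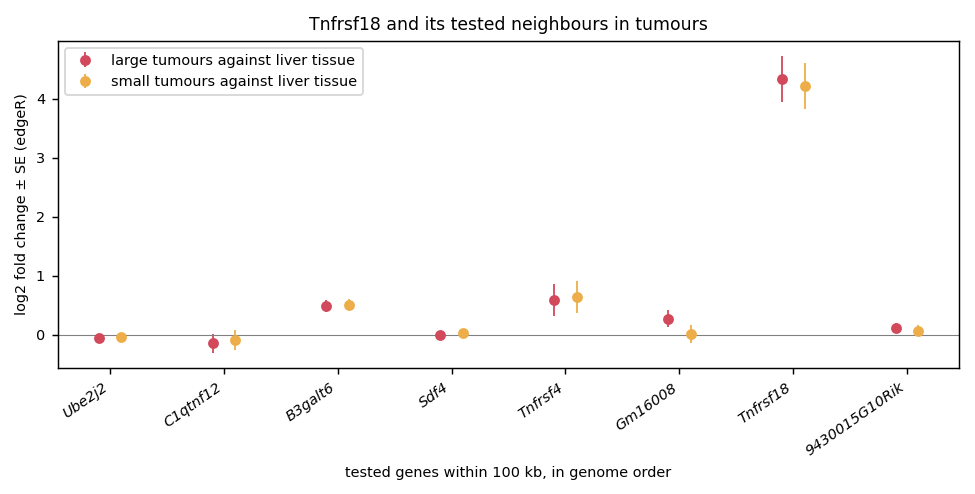
Log2 fold change in large and small tumours against liver tissue, with standard errors, of tested genes within 100 kb of Tnfrsf18, in genome order. In large tumours Tnfrsf18 is at 4.33 and the 7 others lie between -0.14 and 0.59.

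The neighbours of Tnfrsf18 changed less. Within 100 kb there were 14 genes including Tnfrsf18, of which 8 were tested. Of the 7 others, 2 were higher in large tumours, Tnfrsf4 by 0.59 ± 0.27 and B3galt6 by 0.49 ± 0.10. Gm16008 is an antisense gene that shares 27.2% of the exon bases of Tnfrsf18. It was at 1.26, 1.85 and 2.69 CPM in liver tissue and at 1.13, 2.07 and 4.09 CPM in large tumours, a change of 0.27 ± 0.15 (adjusted p = 0.089). Without a stated strand setting of the counting, reads of the shared part could belong to either gene.

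Tnfrsf9 and Tnfrsf4 were low in tissue. Tnfrsf9 had medians of 0.419, 0.529 and 0.654 CPM in liver tissue, small and large tumours, with highest values of 1.11, 14.8 and 21.2 CPM, and the 2 highest tumours were both of run 2. Its log2 fold change was 1.55 ± 0.54 in large (adjusted p = 0.00869) and 1.35 ± 0.52 in small tumours (adjusted p = 0.0205), but 0.61 ± 0.45 in large tumours without run 2 (adjusted p = 0.251). Tnfrsf4 was at 0.0581, 0.368 and 0.869 CPM in liver tissue and at 0.0586, 0.523 and 1.93 CPM in large tumours. Its change of 0.59 ± 0.27 (adjusted p = 0.0458) was 0.22 ± 0.22 with the mean log2 level of T cell markers as a covariate (adjusted p = 0.371). The call in large tumours was also lost with RLE scaling (adjusted p = 0.0536), DESeq2 (0.0542), no run term (0.0521), no filter (0.0793), the title number as a block (0.247) and without run 2 (0.295). In small tumours Tnfrsf4 differed by 0.64 ± 0.27 (adjusted p = 0.0336), and that call was lost with the T cell covariate (0.39, adjusted p = 0.108), with no filter (0.0512), with the title number as a block (0.236) and without run 2 (0.0875). The ranges of tumours and liver tissue overlapped for both genes.

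Ikzf2 was tested in tissue as well. It had medians of 0.662, 0.589 and 0.734 CPM in liver tissue, small and large tumours, with changes of -0.09 ± 0.30 in small and 0.14 ± 0.30 in large tumours that did not pass (adjusted p = 0.81 and 0.686). The other 5 genes were too low for the test. Foxp3 had 32 counts over 15 liver tissue libraries, 83 over 25 small and 91 over 25 large tumours, and Il2ra 46, 101 and 100 counts. Il10 had medians of 0.267, 0.136 and 0.0724 CPM in the 3 groups. Without the filter on low counts, Il10 was lower in large tumours (-1.11 ± 0.39, adjusted p = 0.0165) and Ccr8, with 3 counts in all liver tissue and 28 in small tumours, higher in small tumours (1.83 ± 0.69, adjusted p = 0.0272). Il21 had 2, 4 and 5 counts in the 3 groups.

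Of 16 other TNF receptor genes tested in large tumours, 8 were higher and 4 lower. Beside this and the counts that follow, 70.5% of all genes passed, 38.5% higher and 32.1% lower. Tnfrsf10b, the receptor of TRAIL, was higher by 3.36 ± 0.26 and Tnfrsf12a by 3.26 ± 0.23. Of 21 TRAF and NF-kB genes, 16 were higher and 2 lower, with a median of 0.44 against 0.05 over all genes, and Relb was higher by 1.17 ± 0.14 and Nfkb2 by 0.98 ± 0.09. Of 15 other regulatory T cell genes, 4 were higher and 5 lower, with Areg higher by 4.17 ± 0.63 and Ikzf4 lower by -1.64 ± 0.31. Ltb, which encodes lymphotoxin beta, was higher by 3.31 ± 0.44, among 3 higher and 2 lower of 7 TNF ligands. Interleukin-2 and STAT5 genes had 5 higher and 4 lower of 14, and genes of interleukin-10, interleukin-21 and follicular helper cells 5 higher and 2 lower of 11. Ccl8, a ligand of mouse CCR8, was higher by 2.06 ± 0.58.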

How the data were processed

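The authors deposited a single table of raw counts, with no normalization, that covers 199 libraries. Per the labels' protocols, tissue RNA went into TruSeq stranded mRNA libraries and RNA of sorted cells, of at least 97% purity, into SMARTer stranded total RNA libraries. GRCm38, HISAT2 2.1.0, HTSeq 0.11.2, Trim Galore 0.6.4 and FastQC 0.11.8 are named in the submitters' processing notes. Strand setting and annotation release: not given in the sources used here. Genes that overlap are therefore uncertain. Tnfrsf18 shares 27.2% of its exon bases with Gm16008, Foxp3 18.6% with Flicr and 12.9% with Ccdc22, and Il21 8.92% with Gm12534. The 5 entries of the table that name no gene held 70.1% of T cell and 55.9% of tissue reads and entered neither library sizes nor tests.

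The 9 genes and all gene lists were chosen with earlier results of these data known. All 9 are named in each comparison. Of other lists, up to 3 genes past the threshold with the largest change are named, in part. Groups came from titles and runs from the library names in the labels, with runs joined into sets A to E for T cells. Labels give the animal for sorted cells, and tissue replicates are not tied to animals. Counts were tested with edgeR 4.0.16 in R 4.3.3 (TMM, filterByExpr with minimum count 10 and total 15, robust quasi-likelihood F-test, Benjamini-Hochberg adjustment over all genes, 0.05). Standard errors came from the fold change and F. Liver against blood had the animal as a block, treatments within DEN ALIOS the run set and tissue the run as a term. Same-animal libraries deviated together (mean r 0.219 over 36 pairs, lowest -0.24, against -0.01 between animals), and the pairing comes from animal numbers in the labels. Between libraries of a group, chi-square over its degrees of freedom was at least 2.57, above sampling noise. Foxp3 to Cd4 log2 ratios used a pseudocount of 0.1 CPM and exact permutation. Tried as alternatives were RLE factors, DESeq2 1.42.0, other terms and blocks, no filter and left-out libraries. Intervals cover counting error only, and where no read was counted, up to 3 counts are allowed. On simulated counts, the edgeR step recovered 85% of 2-fold changes for liver against blood in DEN ALIOS, 66.3% for liver DEN ALIOS against PBS, 20.2% for aPD1 against no treatment in liver and 95% for large tumours, and 97.0%, 88.9%, 70% and 100% of 4-fold changes. False calls were 6.70%, 1.92%, 2.17% and 4.90% of the calls. The simulated levels held no effect of animal or run, so these rates do not cover such effects in the real libraries.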

Additional observations from a re-analysis of the deposited data

Results flagged for a closer look

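Of 96 tests for a value standing far from the rest of its group, 9 passed, where chance gives about 1 in 20. The highest library stood apart for Il2ra in combination liver replicate 4 (72.9 CPM), Il10 in DEN ALIOS CXCR2i liver replicate 6 (60.1 CPM), Il10 in aPD1 blood replicate 5 (6.84 CPM) and Tnfrsf9 in DEN ALIOS CXCR2i blood replicate 6 (16.8 CPM). In CXCR2i liver replicate 4 without DEN ALIOS, 4 genes stood apart together, Ccr8 (7.39 CPM), Tnfrsf4 (51.0 CPM), Tnfrsf9 (46.9 CPM) and Il21 (18.6 CPM). The lowest library stood apart for Tnfrsf9 in CXCR2i blood replicate 1 (0.480 CPM).

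The liver-to-blood difference differed from that of PBS mice for Ccr8 (4.02), Tnfrsf9 (1.46) and Ikzf2 (0.94) in DEN ALIOS and for Ccr8 (3.19) with CXCR2i alone, by an interaction term in edgeR. Ccr8 was near the floor at both sites in PBS mice.

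The 61 neutrophil libraries, used in no comparison, held counts of all 9 genes. Liver aPD1 replicate 4, with 236 CPM of the T cell gene Cd3e, was highest for Foxp3 (11.9 CPM), Ikzf2 (65.4), Il10 (16.2), Ccr8 (3.47), Tnfrsf4 (16.1), Tnfrsf9 (25.7), Tnfrsf18 (20.3) and Il21 (12.6). Liver DEN ALIOS replicate 2 was highest for Il2ra (6.85 CPM, Cd3e 47.4 CPM). More than 3 counts were found in 57 libraries for Tnfrsf18, 46 for Tnfrsf4 and 28 for Ikzf2, and in 3 to 11 libraries for the other 6 genes.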

How the results depend on the processing

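Of 626 counts and ratios recomputed under alternatives, 587 stayed on their side of the threshold or within 1.5 times, and 39 changed. Without the run set term, the count of the 9 genes called went from 0 to 5 (blood aPD1 against untreated), to 2 (blood CXCR2i and blood combination against untreated) and to 1 (liver CXCR2i against untreated), and Ikzf2 in blood CXCR2i against untreated went from -0.05 to 0.58. With run set over all groups, blood DEN ALIOS against PBS fell from 5 to 2 and Foxp3 turned to -0.18. The liver combination against CXCR2i had 1 call, 4 with DESeq2 and 0 with no filter, no run set term, the title number as a replicate block, within run set B, without isotype labels and without the doubted libraries (those of high marker sums or low depth). Against untreated, liver CXCR2i had 2 with DESeq2. The blood combination against CXCR2i had 3 with DESeq2 and 1 with no filter or without isotype labels. Without isotype labels, DEN ALIOS CXCR2i against CXCR2i fell from 3 to 0 in liver and from 2 to 1 in blood. In liver against blood, PBS had 3 calls, 5 with no replicate block and 1 without doubted libraries, and CXCR2i had 4, 9 with no filter and 7 in a joint fit. The difference of CXCR2i from PBS went from 1 to 0 without doubted libraries. Tumours of either size against liver tissue had 3 calls, and 1 with the title number as a replicate block or without run 2. The liver Foxp3 to Cd4 difference went from 0.54 to 0.81 without doubted libraries. The cause of these changes was not tested, and shares of all genes under the alternatives are not given here.

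Leaving out 1 library gave 0 to 3 calls for the liver combination against CXCR2i, 0 to 2 for the blood one, and 2 to 5 (liver) and 1 to 2 (blood) for DEN ALIOS CXCR2i against CXCR2i. Without the animal block (no replicate block), no other count moved by over 1.5 times, with 9 for 8 in liver against blood of DEN ALIOS mice, 7 for 8 with the combination and 2 for 3 in the difference of DEN ALIOS from PBS. Title numbers did not pair libraries (mean r -0.00 with and 0.00 without a shared number in T cells). Interactions were not repeated without single animals, and leaving out shallow libraries changes no treatment fit because all of them are PBS libraries. Without the doubted libraries, chosen after seeing the data, liver DEN ALIOS against PBS kept 8 calls. Levels under 1 CPM rest on few counts.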

Other observations

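In tumours, Tnfrsf18 was compared with other genes as a description, a choice made after its values were seen. Across 50 tumours and 12248 genes whose mean reached 1 CPM, the highest r with Tnfrsf18 was that of Cdkn2b (0.92), followed by Inka2 (0.92), Cdkn2a (0.86), Gtse1 (0.86) and Fhl3 (0.84). Cdkn2a and Cdkn2b are neighbouring genes that encode inhibitors of cyclin-dependent kinases. With Alb, the albumin gene of hepatocytes, r was 0.04, with Afp, which marks immature hepatocytes, 0.39, and with the neighbour Tnfrsf4 0.20. For Tnfrsf9 the highest were Kctd11 (0.83), Ctla2a (0.82), Lama4 (0.82), Trp53i11 (0.81) and Cxcr4 (0.81), and r with Cd3e was 0.17. The tumours share runs, and some may share a mouse.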
